A study of Drosophila melanogaster with 10 samples.

Results

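The genes described here encode the vacuolar proton pump (V-ATPase) of the Drosophila melanogaster midgut. They were taken as every gene whose symbol begins with Vha after transcript abundances were summed per gene, which gave 33 of 14292 genes. Of these, 13 encode subunits of V1, the part of the pump that lies in the cytoplasm, and 20 encode subunits or accessory proteins of V0, the part that lies in the membrane. A gene was called widely expressed when its mean over all 10 libraries was at least 10 TPM (a transcript abundance corrected for length and scaled to the same total in every library), which held for 18 genes, and low-level otherwise, which held for 15.

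The V-ATPase is a rotary motor. Its V1 sector hydrolyses ATP and turns a central stalk, and the stalk turns a ring of proteolipids in V0 that carries protons across the membrane past subunit a. The pump acidifies lysosomes and endosomes, takes part in nutrient sensing at the lysosome surface, and in insect epithelia also lies in the plasma membrane, where it energizes transport. In the fly gut, the copper cells of the middle region use it to acidify the lumen. Most subunits are encoded by several genes in the fly, and many of the extra copies are known for expression mainly in the testis.

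Midguts came from adult males, 7 days after eclosion, kept on yeast alone at 25 °C with 12 h of light. The control group had the genotype Dredd D44/Y; mex-GAL4/+ (mex>+), and the other group consisted of Dredd D44/Y males with mex-GAL4/UAS-PGRP-LE (mex>PGRP-LE), with 5 libraries each. Both groups therefore carried the Dredd D44 mutation, in the caspase of the IMD immune pathway, and the mex-GAL4 driver, which acts in enterocytes, so the transgene for the peptidoglycan receptor PGRP-LE was driven in those cells while RNA came from the whole midgut. RNA was taken from 20 midguts, and polyA RNA was sequenced from stranded libraries. Nothing beyond the term biological replicates says how the libraries of a group were separated. The p-values therefore set the group difference against the spread within groups of 5 libraries whose independence is not known.

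PGRP-LE itself stood at 38.2 ± 2.33 TPM in controls and at 4534 ± 295 TPM in mex>PGRP-LE (here and below, ± after a mean is the SD over 5 libraries). Between 8565 and 8767 genes reached 1 TPM in a library, and the first principal component, with 71% of the variance, separated the genotypes. The midgut label could be checked against 10 enterocyte markers, all tested, whose summed TPM was 22979 to 26216 in controls and 20659 to 22786 in mex>PGRP-LE. Of these markers 7 rose and 3 fell. The smallest p was that of Tsp2A, a protein of the septate junction, at a log2 change of 0.97. Most of the summed TPM came from alphaTry, which was among the 3 that fell, at a log2 change of -0.35. Its means were 20493 TPM in controls and 16099 TPM in mex>PGRP-LE, so the sum mainly follows this gene and not the 7 that rose. Progenitor markers stood apart between the groups, with 9 of 9 higher in mex>PGRP-LE (esg, log2 change 1.27), where 40.1% of all tested genes were higher. Their summed TPM was 31.1 to 37.9 in controls and 83.7 to 104 in mex>PGRP-LE, and their part in the pump results was not tested. In whole midguts, fewer cells of a type and less RNA per cell cannot be told apart for any result below.

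Every subunit of the pump had at least 1 abundant gene in the midgut. The 33 genes fell into 14 subunit classes, and the leading gene of each class had a mean of 282 TPM or more over all libraries. Vha16-1 (FBgn0262736), the proteolipid c of the rotating ring, had the highest mean at 1517 TPM and ranked 133 among all genes. Vha13, the peripheral stalk subunit G, followed at 1484 TPM and rank 140, and Vha68-2, the catalytic subunit A that hydrolyses ATP, at 972 TPM and rank 208. The leading gene with the lowest mean was Vha100-2, a subunit a gene, at rank 522. Together the 33 genes held 0.954% ± 0.0571 of all TPM in controls and 1.02% ± 0.0547 in mex>PGRP-LE.

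The other 4 widely expressed genes were second copies. Vha100-5, Vha100-4 and Vha100-1 encode further versions of subunit a, and VhaM9.7-c a further version of the small hydrophobic subunit e. Their means over all libraries were 219, 76.1, 36.6 and 25.3 TPM, in that order. A gap separated them from the low-level genes, of which the highest, Vha68-1, a copy of the catalytic subunit A, had a mean of 7.01 TPM.

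**Figure D1:**
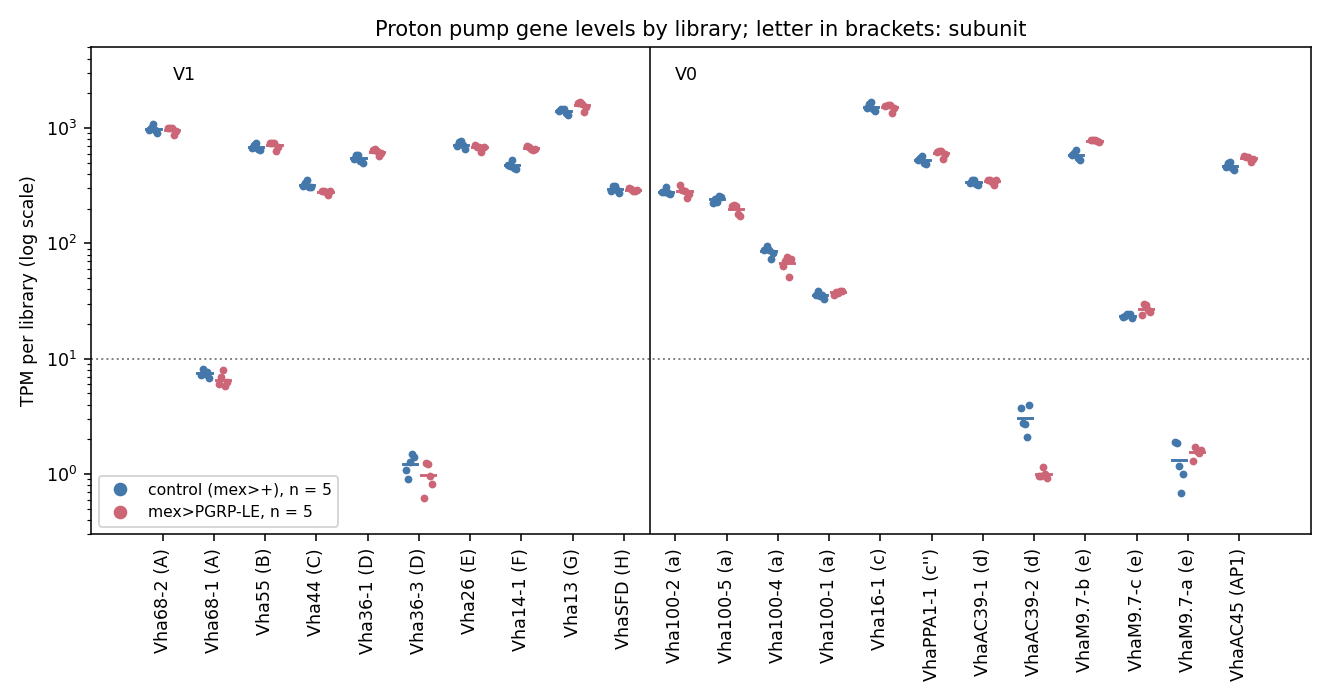
TPM on a log axis for each of the 22 tested pump genes in each library (points; dashes are group means, n = 5), with V1 on the left and V0 on the right and the subunit letter in brackets; the dotted line is the 10 TPM limit between widely expressed and low-level genes. The points of the 2 genotypes lie close together for most genes, and they are apart for Vha14-1, VhaM9.7-b, Vha44, Vha100-5 and VhaAC39-2.

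In 9 subunit classes more than 1 gene was annotated, and outside subunit a the leading gene held nearly all of the TPM. Vha68-2 held 99.2% of the subunit A TPM in controls, Vha36-1 99.8% of subunit D, and VhaM9.7-b 95.9% of subunit e. Among the 15 low-level genes, 11 had a mean below 1 TPM and were not tested. The highest value of an untested gene in any library was 0.905 TPM, for VhaAC45RP, a relative of the accessory protein Ac45. Vha16-2, Vha16-3 and Vha100-3 were listed at 0 in every library. The low-level genes summed to 14.1 ± 0.810 TPM in controls and 11.3 ± 1.16 TPM in mex>PGRP-LE.

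In 4 places copies sit beside each other in the genome (Ensembl annotation of BDGP6.54), and in 3 of them the neighbours differed widely in level. Vha100-4 and Vha100-2 lie on the minus strand of 3R with 517 bases between them, at means of 76.1 and 282 TPM. Vha68-3 follows Vha68-2 on 2L after 178 bases on the same strand, yet its mean was 0.215 TPM against 972 TPM. VhaPPA1-2 and VhaPPA1-1, both genes of the ring subunit c'', lie 2052 bases apart on 3R, with RpS5b between them, at 0.0265 and 565 TPM. In the other place, Vha16-3 and Vha16-2 on 3L, 985 bases apart, both were listed at 0. How reads that match more than 1 of these copies were divided was not tested.

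Most of the abundant genes shared their highest and lowest libraries. Of the 18 widely expressed genes, 14 had their highest control value in control library 3 and 16 had their lowest in control library 5. In mex>PGRP-LE, 13 of the 18 had their lowest value in library 4, and the highest lay in library 2 for 8 genes and in library 1 for 6. The share of all genes with these patterns was not counted, so whether they are particular to the pump genes is not known. The median-of-ratios scaling factor, larger where the typical gene is lower, was highest in control library 5, at 1.07. It was 1.04 in control library 3 and 0.999 in mex>PGRP-LE library 4. Their summed TPM ran from 8866 to 10274 in controls and from 9298 to 10615 in mex>PGRP-LE, so the groups overlapped. ERCC spike-ins, external RNA standards, held 1.53% of TPM in mex>PGRP-LE library 4 and 1.14% to 1.38% in the other 4 libraries of that group, against 1.23% to 1.34% in controls. The part of the spike-in share in the library pattern was not tested.

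**Figure D2:**
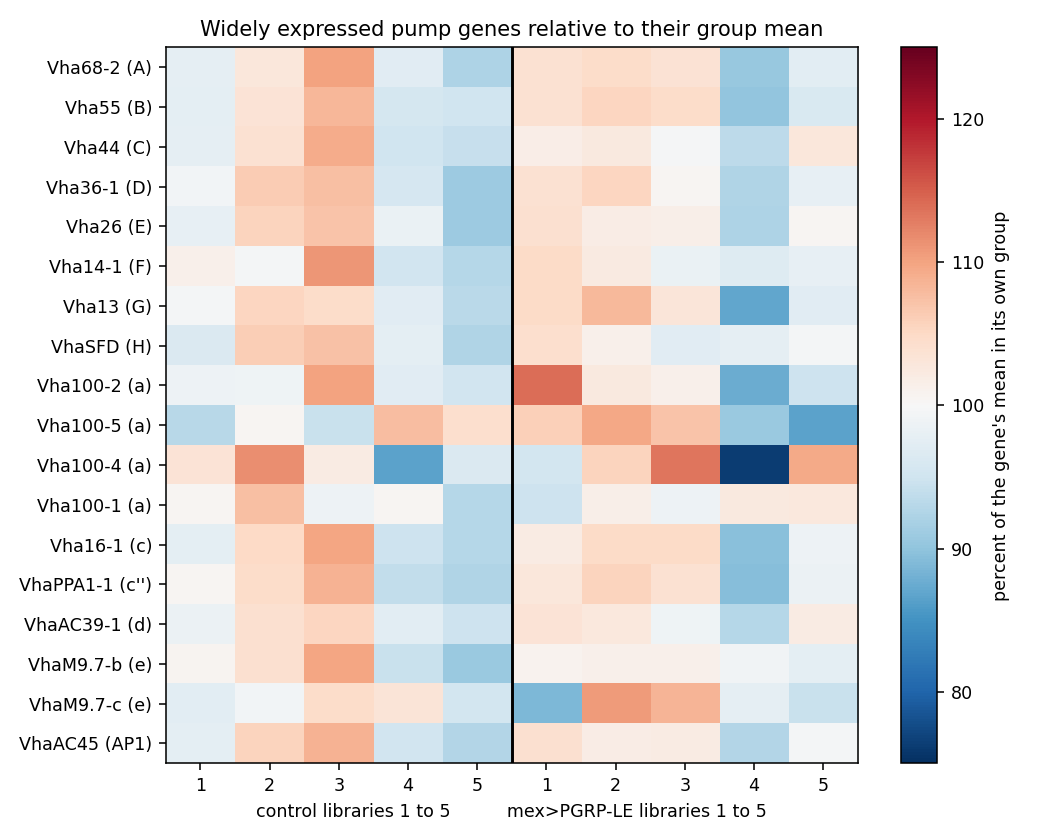
TPM of each widely expressed pump gene in each library as a percent of the gene's mean in its own group (colour), controls on the left and mex>PGRP-LE on the right. Most rows are high in control library 3 and low in control library 5 and mex>PGRP-LE library 4; Vha100-5 is highest in control library 4, and Vha100-4 falls to 76.2% of its group mean in mex>PGRP-LE library 4.

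The comparison of genotypes addresses whether driving PGRP-LE in enterocytes that lack normal Dredd changed the pump transcripts. Small changes in both directions were found. Of 22 tested pump genes, 7 rose, 4 fell and 11 did not pass the test (limma adjusted p under 0.05), which is 50% called. Over all 8722 tested genes 62.9% were called, 40.1% higher and 22.8% lower, so the pump genes did not stand out by their count. The median log2 change was 0.02 over the pump genes and 0.09 over all genes. The groups did not overlap for 5 pump genes, where 48.3% of all tested genes had groups that did not overlap.

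By sector, 3 of 10 tested V1 genes rose and 1 fell, and 4 of 12 tested V0 genes rose and 3 fell. The median log2 change was -0.02 in V1 and 0.05 in V0. By level, 7 of 18 widely expressed genes rose and 3 fell, and of the 4 low-level genes tested, 0 rose and 1, VhaAC39-2, which entered the test through its control values, fell. Summed TPM was higher by the same ratio in both sectors, from 5425 ± 325 to 5788 ± 325 TPM in V1 and from 4114 ± 247 to 4394 ± 224 TPM in V0, a ratio of 1.07 each. The ranges of both sums overlapped between the groups.

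The direction of these counts depended on how the libraries were scaled. With the deposited TPM 63.7% of all calls in the transcriptome were higher, and after median-of-ratios rescaling 51.1%, after rescaling to the spike-ins 61.0% and after quantile normalization 53.8%. After median-of-ratios rescaling 2 pump genes were called higher and 6 lower, where 32.2% of all tested genes were higher and 30.8% lower (63% in all). After rescaling to the spike-ins 2 were higher and 2 lower, against 29.5% and 18.9% of all genes (48.4%). Under quantile normalization 2 were higher and 8 lower, against 34.2% and 29.4% of all genes (63.7%). Vha14-1 and VhaM9.7-b were higher, and Vha100-5 lower, under every one of these scalings.

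**Figure D3:**
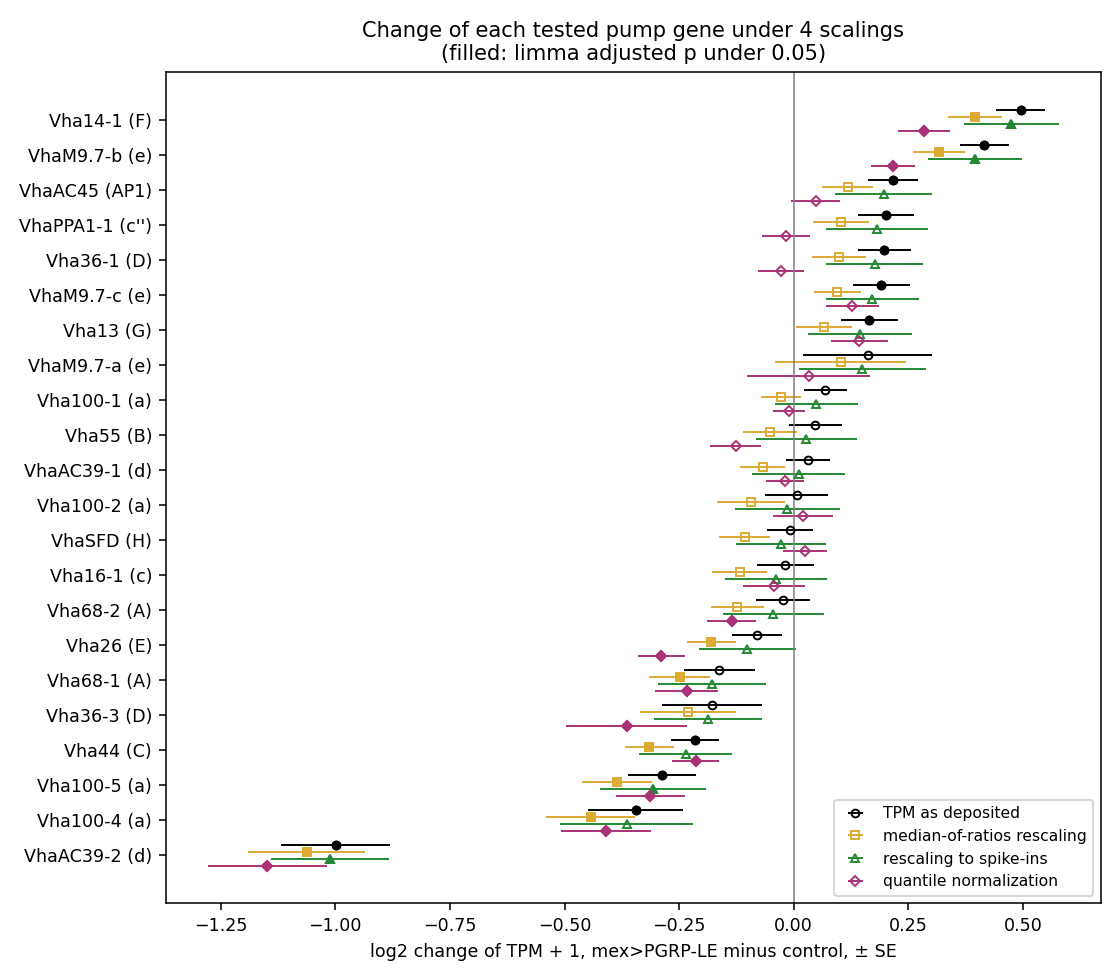
Log2 change of TPM + 1 (mex>PGRP-LE minus control, ± SE) for each tested pump gene under the deposited TPM and 3 rescalings, filled where the limma adjusted p was under 0.05. Vha14-1 and VhaM9.7-b are filled on the right and Vha100-5 and VhaAC39-2 on the left under all 4 scalings, while VhaAC45, VhaPPA1-1, Vha36-1, VhaM9.7-c and Vha13 are filled for the deposited TPM alone.

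In V1, the largest rise was that of Vha14-1 (FBgn0262512, 2R, 15679426 to 15680084, minus strand), subunit F of the central rotor stalk. It stood at 480.2, 472, 527, 451 and 439.7 TPM in control libraries 1 to 5, and at 699, 682, 656, 645 and 654 TPM in mex>PGRP-LE libraries 1 to 5. All 5 mex>PGRP-LE libraries lay above all controls. The means were 474 ± 33.6 and 667 ± 22.5 TPM. On the log2 scale the gene rose by 0.49 ± 0.05 (± SE here and after every log2 change; limma adjusted p = 6.57e-06), and the change was between 0.28 and 0.53 and past the threshold in 20 of 20 alternative settings.

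Vha36-1 (subunit D) forms the central stalk with subunit F, and it too was higher with the deposited TPM. Its values were 540.4, 579, 585, 521 and 494 TPM in controls and 646, 656, 626, 577 and 609.9 TPM in mex>PGRP-LE. The groups overlapped through mex>PGRP-LE library 4, which lay below the 2 highest controls. The log2 change was 0.20 ± 0.06 (limma adjusted p = 0.0102), and it was not called under the 3 rescalings and turned to -0.03 under quantile normalization.

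The peripheral stalk holds the ATPase ring still and is built from subunits C, E and G. Its 3 genes did not share a direction. Vha44 (subunit C, FBgn0287825, 2R, 16324813 to 16336637) fell, with 316, 336, 354, 307 and 305 TPM in controls and 283, 285, 277, 259.9 and 286 TPM in mex>PGRP-LE. The groups did not overlap, and the gene changed by -0.22 ± 0.05 (limma adjusted p = 0.00326). The call was kept in 19 of 20 alternatives. It was lost after rescaling to the spike-ins, where the change was -0.24 ± 0.10 with a larger SE (limma adjusted p = 0.0609). Hmgs, on the opposite strand, overlaps Vha44, and no source used here says whether reads were assigned by strand.

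Vha13 (subunit G) was called higher with the deposited TPM, where its values were 1390.0, 1474, 1463, 1358 and 1304 TPM in controls and 1644, 1696, 1619, 1366 and 1525 TPM in mex>PGRP-LE. Library 4 of mex>PGRP-LE lay among the controls. The log2 change of 0.16 ± 0.06 (limma adjusted p = 0.038) was called in 10 of 20 alternatives. It was lost under the 3 rescalings (adjusted p up to 0.372), with no filter on low values (0.0521), and without control library 1, 4 or 5 or mex>PGRP-LE library 1, 2 or 3 (up to 0.0938). Vha26 (subunit E) stood at 718 ± 47.0 and 678 ± 30.8 TPM, a log2 change of -0.08 ± 0.05 that did not pass the test, although it was called lower after median-of-ratios rescaling (-0.18) and quantile normalization (-0.29).

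The ring of subunits A and B, where ATP is hydrolysed, was not called at the gene level. Vha68-2 (A) stood at 980 ± 66.5 and 963 ± 57.7 TPM, a log2 change of -0.02 ± 0.06. Vha55 (B) stood at 684 ± 39.1 and 707 ± 47.1 TPM, a change of 0.05 ± 0.06. VhaSFD, the regulatory subunit H, stood at 295 ± 19.2 and 293 ± 8.29 TPM, a change of -0.01 ± 0.05. Vha68-2 was called lower under quantile normalization (-0.14) and neither of the other 2 genes was called under any of the rescalings.

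In V0, the largest rise was that of VhaM9.7-b (FBgn0028663, 3L, 21539862 to 21541215), the leading gene of the small subunit e. Control libraries 1 to 5 stood at 588, 608, 642, 552 and 530.1 TPM and mex>PGRP-LE libraries at 785, 787, 787, 771 and 759 TPM. The groups were well apart, and the mex>PGRP-LE libraries were close to each other. The means were 584 ± 44.4 and 778 ± 12.6 TPM. The gene rose by 0.42 ± 0.05 on the log2 scale (limma adjusted p = 2.98e-05), and the call held in 20 of 20 alternatives. Its copy VhaM9.7-c rose from 23.6 ± 0.898 to 27.1 ± 2.52 TPM with the deposited TPM (0.19 ± 0.06, adjusted p = 0.0179) but was not called under the 3 rescalings, and the third copy, VhaM9.7-a, stood at 1.33 ± 0.539 and 1.55 ± 0.163 TPM.

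The proteolipid ring gave different values for its 2 kinds of subunit. Vha16-1 (c) stood at 1489, 1603, 1679, 1448 and 1417 TPM in controls and at 1539, 1578, 1579.5, 1351 and 1488 TPM in mex>PGRP-LE, a log2 change of -0.02 ± 0.06 between groups that overlapped throughout. VhaPPA1-1 (c'') stood at 528, 549, 570.3, 493 and 486 TPM in controls and at 621, 638, 627, 540.1 and 595 TPM in mex>PGRP-LE. Its log2 change of 0.20 ± 0.06 (limma adjusted p = 0.0122) passed the test with the deposited TPM, was lost under the 3 rescalings and was -0.02 under quantile normalization. VhaAC39-1, subunit d, which caps the ring and joins it to the stalk, stood at 338 ± 15.2 and 345 ± 14.9 TPM, a change of 0.03 ± 0.05.

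VhaAC45 encodes the accessory protein Ac45, which in mammals takes part in pump assembly and sorting. It stood at 458, 495, 509.7, 447 and 435 TPM in controls and at 566, 555, 555, 504 and 542 TPM in mex>PGRP-LE. Only library 4 of mex>PGRP-LE lay within the range of the controls. The log2 change was 0.22 ± 0.05 (limma adjusted p = 0.00451), kept in 17 of 20 alternatives and lost under the 3 rescalings. A further accessory protein, ATP6AP2, has a symbol that the selection did not match and was looked at after its values were seen. Its level went from 439 ± 31.7 to 509 ± 29.5 TPM, and it rose by 0.21 ± 0.06 on the log2 scale (limma adjusted p = 0.00863).

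Subunit a was the class in which several genes were abundant, with values that differed between its genes. Versions of subunit a are known to differ in the membrane to which they send the pump. Of the 4 genes above 0, Vha100-5 and Vha100-4 fell and Vha100-2 and Vha100-1 did not pass the test, under the deposited TPM and 2 of the 3 rescalings. After rescaling to the spike-ins, Vha100-4 missed the threshold (adjusted p = 0.0508). The class summed to 642 ± 13.7 TPM in controls and 585 ± 48.7 TPM in mex>PGRP-LE.

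Vha100-5 (FBgn0032373, 2L, 11738948 to 11744524) stood at 224, 242, 227, 259 and 251 TPM in controls and at 209, 216, 211, 179 and 171 TPM in mex>PGRP-LE. The groups did not overlap. On the log2 scale the change was -0.29 ± 0.07 (limma adjusted p = 0.00502), called in 20 of 20 alternatives, between -0.39 and -0.24. The antisense RNA CR44144 overlaps this gene on the opposite strand.

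Vha100-4 (FBgn0038613, 3R, 18386841 to 18389805) stood at 87.8, 94.9, 86.7, 73.6 and 81.9 TPM in controls and at 64.0, 70.9, 76.1, 51.1 and 73.5 TPM in mex>PGRP-LE. Control library 4 lay within the range of the other group. On the log2 scale Vha100-4 changed by -0.34 ± 0.10 (limma adjusted p = 0.0123). Among the 10 markers of copper cells and the iron region 4 fell, 1 rose and 5 were not called, which is 50% called against 62.9% of all genes. The summed TPM of the list was 24194 to 41086 in controls and 11835 to 17519 in mex>PGRP-LE. The metallothioneins MtnA (18489 ± 4900 and 6106 ± 1729 TPM) and MtnC (5846 ± 948 and 1718 ± 372 TPM) made up most of that difference. The other 2 that fell were lab, the homeobox gene that specifies copper cells, at a log2 change of -0.52, and dve at -0.37, while Ptx1 rose by 0.15. Under the 3 rescalings 0 of the 10 were higher. After median-of-ratios rescaling 5 were lower, after rescaling to the spike-ins 4, and under quantile normalization 5, against the shares of all genes given above. None of the 10 was at 0, and their part in the fall of Vha100-4 was not tested. On the opposite strand cona overlaps Vha100-4, as Vti1b does Vha100-2.

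The other two genes of subunit a did not pass the test, at 281 ± 16.3 and 283 ± 27.6 TPM for Vha100-2 and at 35.7 ± 1.87 and 37.5 ± 1.23 TPM for Vha100-1. Their log2 changes were 0.01 ± 0.07 and 0.07 ± 0.05. As a share of the subunit a TPM, Vha100-2 was at 43.7% ± 2.00 in controls and 48.3% ± 1.68 in mex>PGRP-LE, and Vha100-5 at 37.5% ± 2.48 and 33.7% ± 1.68. The shares of Vha100-4 were 13.2% ± 1.17 and 11.5% ± 1.47, and those of Vha100-1 were 5.57% ± 0.267 and 6.46% ± 0.730. The Vha100-2 shares ran from 42.2% to 47.0% in controls and from 46.8% to 51.0% in mex>PGRP-LE, so control library 3 overlapped the other group. The difference in shares was not tested.

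**Figure D4:**
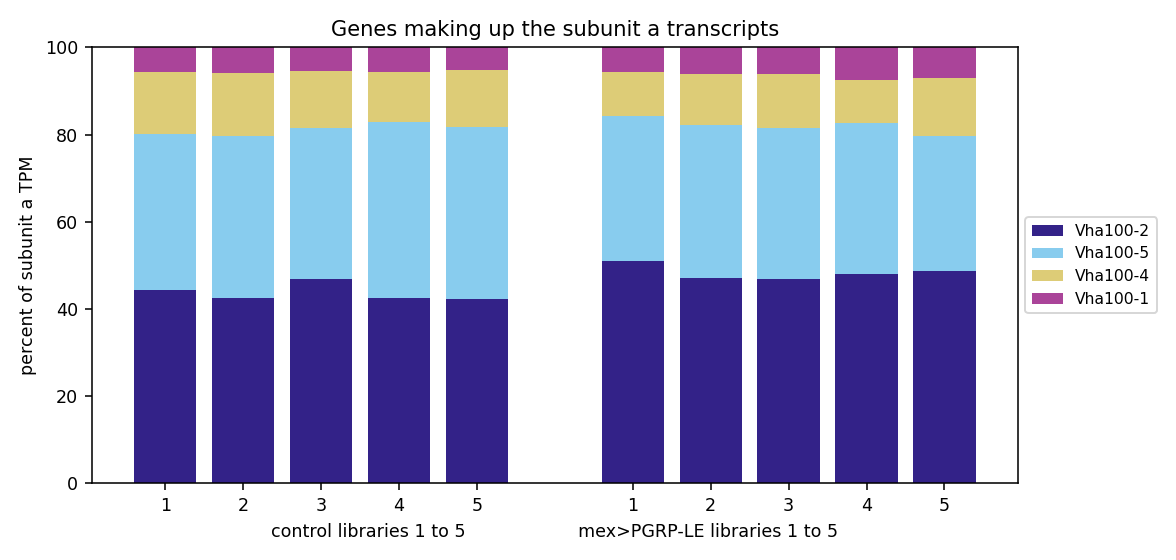
Percent of the subunit a TPM held by each of the 4 subunit a genes with any signal, 1 bar per library, controls on the left and mex>PGRP-LE on the right. The lowest part of each bar, Vha100-2, has a mean of 43.7% in controls and 48.3% in mex>PGRP-LE, and the part above it, Vha100-5, has 37.5% and 33.7%.

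Among the low-level genes, VhaAC39-2 differed between the groups. VhaAC39-2 (FBgn0039058, 3R, 23158017 to 23159316), a copy of subunit d, stood at 3.70, 2.75, 2.71, 2.07 and 3.98 TPM in controls and at 0.953, 0.955, 1.14, 1.00 and 0.917 TPM in mex>PGRP-LE. All mex>PGRP-LE values lay below all control values and close to each other. The log2 change was -1.0 ± 0.12 on the log2(TPM + 1) scale (limma adjusted p = 1.54e-05), and ran from -1.49 to -0.42 with pseudocounts of 0.1 and 5. The gene passed the filter on low values through its control libraries, where it was high, so its call is no support for a pattern among the members. Tested with no such filter, the adjusted p was 4.79e-05. Its share of the subunit d TPM was 0.897% in controls and 0.288% in mex>PGRP-LE, beside an abundant VhaAC39-1. Testis markers, listed because the dissection could have held that tissue, had 1 of 17 genes tested, 0 called, 5 at 0 in every library, and a summed TPM of 5.15 to 7.35 in controls and 4.35 to 6.44 in mex>PGRP-LE. Their part in the fall of VhaAC39-2 was not tested.

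The other 3 tested low-level genes did not pass the test. Vha68-1, a copy of the catalytic subunit, stood at 7.45 ± 0.512 and 6.57 ± 0.857 TPM, a log2 change of -0.16 ± 0.08. It was called lower after median-of-ratios rescaling (-0.25) and quantile normalization (-0.23). Vha36-3, a copy of subunit D, stood at 1.23 ± 0.242 and 0.976 ± 0.264 TPM, a change of -0.18 ± 0.11, and was called lower under quantile normalization (-0.36).

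The transcripts of the pump genes were also tested one by one. Of 74 annotated transcripts, 46 from 22 genes were tested, 9 rose and 12 fell, which is 45.7% called against 46.2% of all 15162 tested transcripts (28% higher and 18.2% lower). After median-of-ratios rescaling 4 rose and 15 fell, against 22.2% and 23.8% of all transcripts (46% in all). After rescaling to the spike-ins 5 rose and 7 fell, against 21.2% and 15.7% (36.9%), and under quantile normalization 5 rose and 15 fell, against 24.6% and 21.6% (46.3%). The largest change was within Vha26, subunit E of the peripheral stalk, a gene that was not called as a whole. Estimates for transcripts that differ in a small part of their length rest on the reads in that part, and how kallisto shared the remaining reads was not tested.

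Vha26-RC stood at 1.26, 1.98, 2.04, 2.29 and 1.72 TPM in controls and at 22.7, 22.2, 22.3, 25.7 and 28.3 TPM in mex>PGRP-LE. Every mex>PGRP-LE library was far above every control. The rise was 3.15 ± 0.11 on the log2 scale (limma adjusted p = 1.03e-08), and the call held in 20 of 20 alternatives, between 2.09 and 3.66. Vha26-RA fell at the same time, from 31.5, 35.9, 37.8, 35.2 and 32.8 TPM to 17.3, 14.3, 17.8, 7.45 and 18.2 TPM, with no overlap between the groups. Its log2 change was -1.21 ± 0.20 (adjusted p = 5.87e-04).

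The main transcript, Vha26-RB, held 94.9% ± 0.268 of the gene's TPM in controls and 94.2% ± 0.628 in mex>PGRP-LE. It stood at 681 ± 44.9 and 639 ± 28.4 TPM, a log2 change of -0.09 ± 0.05 that did not pass the test. The 3 transcripts have the same coding exons, with 678 coding bases without the stop codon. Vha26-RA and Vha26-RC keep a 98-base intron ahead of the coding part that Vha26-RB lacks, and Vha26-RC ends 657 bases beyond the other two. The gene lies on the plus strand of 3R, from 5591763 to 5595356, and the next gene, kra, lies on the minus strand and ends 7 bases from the end of Vha26-RC. That neighbour, at 242 ± 13.9 TPM in controls and 335 ± 9.17 TPM in mex>PGRP-LE, rose by 0.47 ± 0.05 on the log2 scale (limma adjusted p = 4.52e-06), and its part in the Vha26-RC estimate was not tested.

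**Figure D5:**
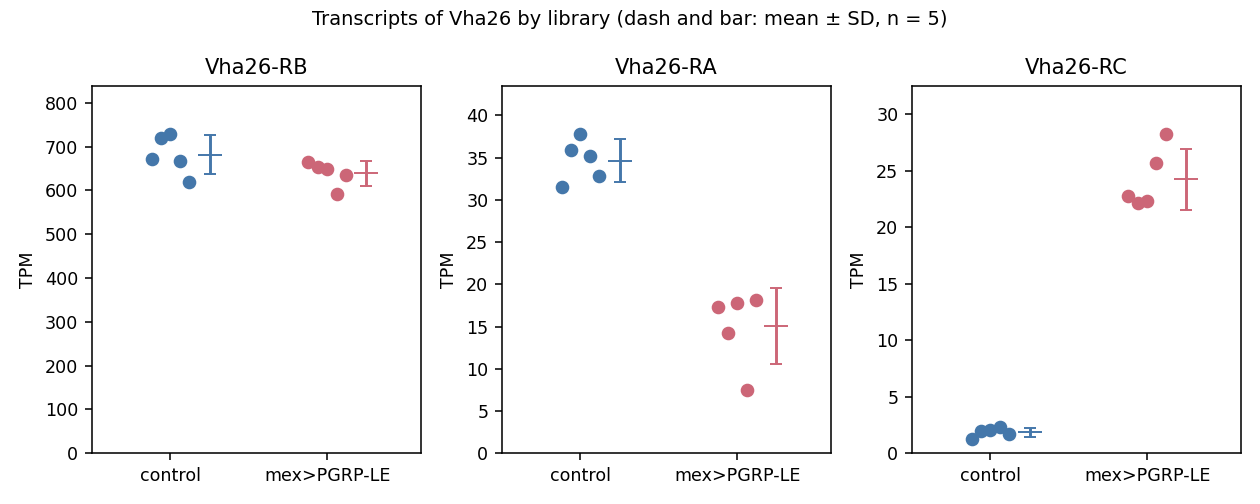
TPM of the 3 Vha26 transcripts in each library (points; dash and bar are mean ± SD, n = 5), each panel with its own axis from 0. Vha26-RB overlaps between the groups, Vha26-RA is lower in mex>PGRP-LE and Vha26-RC, near 2 TPM in controls, lies above 22 TPM in mex>PGRP-LE.

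The ring proteolipid gene Vha16-1 had transcripts from 2 annotated start sites. Vha16-1-RA, which starts at position 6633090 of 2R, stood at 1140.2 ± 117 and 1194 ± 95.9 TPM, a log2 change of 0.07 ± 0.08. The other 3 transcripts start at 6632384, and all 3 fell with the deposited TPM. Vha16-1-RC stood at 55.8, 64.8, 59.2, 59.5 and 56.6 TPM in controls and at 36.0, 38.6, 35.0, 36.3 and 41.8 TPM in mex>PGRP-LE, without overlap, a change of -0.64 ± 0.06 (limma adjusted p = 1.02e-05). Vha16-1-RB changed by -0.23 (adjusted p = 0.00456) and Vha16-1-RD by -0.36 (adjusted p = 0.0114), and the call of Vha16-1-RB was lost after rescaling to the spike-ins. All 4 share the same coding exons. The share of the gene held by Vha16-1-RA was 74.5% ± 2.35 in controls and 79.2% ± 1.71 in mex>PGRP-LE (exact permutation test, two-sided, p = 0.0238, adjusted p = 0.086 over 13 genes).

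The transcripts of Vha100-2 also start at 2 sites. Vha100-2-RB starts at 18399169 on 3R and stood at 241 ± 16.1 and 252 ± 25.8 TPM, a log2 change of 0.06 ± 0.07. Vha100-2-RA starts at 18396928 and stood at 41.3, 34.4, 40.8, 40.0 and 40.1 TPM in controls and at 33.2, 33.1, 31.2, 29.9 and 26.5 TPM in mex>PGRP-LE. The groups did not overlap, and the log2 change was -0.34 ± 0.07 (limma adjusted p = 0.00304), called in 20 of 20 alternatives. The share of the gene held by Vha100-2-RB did not pass its test after adjustment (exact permutation test, adjusted p = 0.0516).

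For the accessory protein gene VhaAC45, the minor transcript was called and the main one was not. VhaAC45-RA stood at 76.7, 71.9, 86.2, 67.9 and 61.7 TPM in controls and at 109.5, 118, 112, 104 and 93.3 TPM in mex>PGRP-LE, all above the controls. Its log2 change was 0.56 ± 0.09 (limma adjusted p = 5.42e-04) and was called in 20 of 20 alternatives, and that of VhaAC45-RB was 0.14 ± 0.05 (adjusted p = 0.0516). The test of the share held by VhaAC45-RB did not pass after adjustment either (exact permutation test, adjusted p = 0.0516). Both share the coding exons, and VhaAC45-RA keeps an intron ahead of the coding part. They also differ at the far end, where VhaAC45-RA ends at 9209655 of 2R and VhaAC45-RB at 9209774.

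VhaSFD-RB carries a coding exon that the main transcript of subunit H lacks. It stood at 19.6, 23.6, 21.7, 19.4 and 18.7 TPM in controls and at 14.7, 15.9, 13.0, 17.0 and 16.8 TPM in mex>PGRP-LE, without overlap. The fall was significant at -0.39 ± 0.09 on the log2 scale (limma adjusted p = 0.00361), called in 20 of 20 alternatives, while the gene as a whole changed by -0.01. Both main transcripts of Vha44 fell with the deposited TPM, by 0.23 and 0.20 on the log2 scale, although they differ in a coding exon, and the fall of Vha44-RC was called in 8 of 20 alternatives.

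Across 13 genes with a leading transcript to compare, 0 shares passed an adjusted p of 0.05 and 6 had an unadjusted p under 0.05 (exact permutation tests, two-sided). The 2 with groups that did not overlap were Vha100-2-RB, at 86.0% ± 1.18 and 89.1% ± 0.865 of its gene, and VhaAC45-RB, at 84.5% ± 1.26 and 80.3% ± 1.56. Each had p = 0.00794, the smallest that an exact permutation test of 5 against 5 can give, and an adjusted p of 0.0516. Over 13 genes these 2 could pass only if other genes also came near that smallest p. Their adjusted p therefore cannot decide whether the 2 shares differed.

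The pump works with an assembly factor and a set of lysosomal proteins, of which 16 were listed and tested. Of these 6 rose and 6 fell, with a median log2 change of 0.06, which is 75% called against 62.9% of all genes. The counts were 4 higher and 7 lower after median-of-ratios rescaling, 3 and 3 after rescaling to the spike-ins, and 5 and 7 under quantile normalization. Of all tested genes, 63%, 48.4% and 63.7% were called under these rescalings, in that order. Trpml, the calcium channel of the lysosome membrane, had the smallest p and changed from 49.7 ± 4.09 to 31.2 ± 1.72 TPM, a log2 change of -0.65 ± 0.06. Lamtor5 and Lamtor2, parts of the scaffold that tethers the nutrient-sensing GTPases to the pump, rose by 0.42 and 0.29. Mitf, a transcription factor known in flies to act on V-ATPase genes, fell by 0.31, from 37.3 ± 2.36 to 29.9 ± 1.93 TPM, and was named after its values were seen.

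Among 21 tested lysosomal enzymes and membrane proteins, which work in the compartment that the pump acidifies, 10 rose and 7 fell, with a median log2 change of -0.05. That is 81.0% called against 62.9% of all genes. After median-of-ratios rescaling and under quantile normalization 8 were higher and 9 lower, and after rescaling to the spike-ins 8 and 6, against the shares of all genes given above. The 3 with the smallest p were Npc2a, a sterol-binding protein, at a log2 change of 2.75, and the proteases CtsB and cathD at 0.78 and 0.64. These 3 rose, while the largest change in the list was a fall, that of Gal at -3.43, from 192 ± 14.7 to 17.9 ± 7.20 TPM. The mitochondrial ATP synthase, a rotary enzyme related to the pump, had 11 of 13 tested genes higher and 0 lower, with a median of 0.32. That is 84.6% called, all higher, where 40.1% of all genes were higher. Under the 3 rescalings 7 to 9 were higher and 0 lower. Its 3 genes with the smallest p, sun, ATPsynE and ATPsynG, rose by 0.48, 0.50 and 0.39.

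Markers of other tissues and cells that express the pump were read beside these results. Of 14 Malpighian tubule markers 10 were tested, 1 rose (Oatp58Da, a transporter, log2 change 1.02) and 1 fell (ClC-a, a chloride channel, -1.02). That is 20% called against 62.9% of all genes. Their summed TPM was 541 to 655 in controls and 391 to 573 in mex>PGRP-LE. Most of it came from Picot, which was not called, at 425 ± 70.9 and 371 ± 93.5 TPM. None of the markers was at 0 in every library. After median-of-ratios rescaling and under quantile normalization 1 was higher and 4 were lower, against the shares of all genes given above. Enteroendocrine markers had 2 higher and 2 lower of 11 tested (CCHa1, 0.59), which is 36.4% called, and their summed TPM was 702 to 802 and 723 to 805. Visceral muscle markers had 0 higher and 4 lower of 12 (how, -0.40), which is 33.3% called, with summed TPM of 2864 to 3582 and 2957 to 3665. Their part in the pump results was not tested.

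In the authors' deposited table of their own comparison, 23 of the 33 genes were matched by current gene identifier, with p-values whose adjustment is not stated. No match by symbol or older identifier was made, so an unmatched gene may still be listed there. In the authors' deposited table the log2 fold change was 0.469 for Vha14-1 (p = 2.34e-06), 0.383 for VhaM9.7-b (p = 6.07e-05), -0.306 for Vha100-5 (p = 0.0122), -0.369 for Vha100-4 (p = 0.00351) and -1.69 for VhaAC39-2 (p = 9.83e-17). The authors' deposited table gave 0.19 for VhaAC45 (p = 0.0524) and 0.172 for Vha36-1 (p = 0.0833). Of the 7 genes called higher here, 2 had p under 0.05 in the authors' deposited table, and VhaPPA1-1, VhaM9.7-c and Vha13 stood there at p = 0.0843, 0.114 and 0.148. Of the 4 called lower here, the 3 matched in the authors' deposited table had p under 0.05, and Vha44 was not among those matched.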

How the data were processed

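PolyA RNA of whole midguts was sequenced in 5 libraries per genotype, from stranded kits per the labels' protocols. The deposited TPM table holds 31181 rows, 92 of them ERCC spike-ins. Per the submitters' processing notes, the tools were kallisto, edgeR, Trim Galore and FastQC on build BDGP6; versions are not given. Since TPM hold no read totals, library depth is unknown, and counting intervals are left out. The authors' table of log2 fold changes and p-values, whose title names RUVSeq, was copied and not recomputed.

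Rows were matched to genes with Ensembl release 115 (31048 of 31089 rows) and summed. Genes and transcripts that reached 1 TPM in 5 or more of the 10 libraries were tested as log2(TPM + 1), which understates changes of low genes, with limma 3.58.1 in R 4.3.3 (eBayes with trend and robust, genotype alone as a term). Tests were two-sided, with Benjamini-Hochberg adjustment over all features and a threshold of 0.05. "Rose" and "fell" mean past it. Shares of leading transcripts were compared for genes of at least 10 TPM with exact permutation tests in SciPy 1.17.1.

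The members, lists and tests were chosen with earlier results of these data known. The genes named are all members, PGRP-LE, 3 genes with the smallest p per list and 1 per list of another cell type. The lists cover assembly and nutrient sensing, lysosomal proteins, mitochondrial ATP synthase, enterocytes, progenitors, copper and iron regions, enteroendocrine cells, Malpighian tubule, testis and visceral muscle. ATP6AP2, kra, Mitf and lab were added after their values were seen. Outside this rule alphaTry, MtnA, dve, Ptx1, Oatp58Da, Gal and Picot were also named, to describe their lists. The 20 alternatives to the gene fit were pseudocounts of 0.1 and 5, no filter or a mean of at least 5 TPM, 3 rescalings (median-of-ratios, spike-in total, quantile), a replicate block, array weights, plain eBayes, and each library left out in turn. The fits were tested on simulated data.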

Additional observations from a re-analysis of the deposited data

Results flagged for a closer look

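Among 102 groups of 5 libraries examined, 3 held a library far from the others by Dixon's criterion, which chance gives in about 1 in 20 groups. Vha100-2 stood at 309 TPM in control library 3, where the other 4 controls lay between 267 and 278 TPM. Most other widely expressed pump genes were also highest in that library. Vha100-2-RA, the transcript from the inner start site of the gene, stood at 34.4 TPM in control library 2, below the 40.0 to 41.3 TPM of the other controls and above the 33.2 TPM that was the highest value in mex>PGRP-LE. Vha44-RA, a transcript of the peripheral stalk subunit C, stood at 137 TPM in mex>PGRP-LE library 4, where the other 4 libraries lay between 153 and 158 TPM.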

How the results depend on the processing

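Scaling changed the counts most, and the cause was not tested. For VhaAC45 the log2 change was 0.22 ± 0.05 with the deposited TPM and 0.20 ± 0.11 after rescaling to the spike-ins. There the change was similar and its SE larger. After median-of-ratios rescaling it was 0.12 ± 0.06, a smaller change with a similar SE. Against 7 pump genes higher and 4 lower with the deposited TPM, 2 were higher after median-of-ratios rescaling, rescaling to the spike-ins and quantile normalization alike, and 2 were lower after rescaling to the spike-ins and 8 after quantile normalization. Against 9 transcripts higher and 12 lower, 4, 5 and 5 were higher under these rescalings in that order, and 7 were lower after rescaling to the spike-ins. Under quantile normalization the log2 change turned to -0.0280 for Vha36-1, -0.0320 for Vha36-1-RA, -0.0171 for VhaPPA1-1 and -0.0150 for VhaPPA1-1-RA. With 1 library left out at a time, 6 to 7 genes were higher and 4 to 5 lower, 6 to 10 transcripts were higher and 10 to 12 lower. Of the log2 changes of single genes and transcripts over all alternatives, 1238 stayed on their side of the threshold, 58 of them with a change of sign while not called, 74 lost the call with the same sign, 26 gained one, and the 4 above lost the call and changed sign. With the replicate number as a block, 7 genes were higher and 4 lower, 8 transcripts were higher and 11 lower, and the block says nothing of the shares, since an exact sign-flip test of 5 pairs cannot go below p = 0.0625. Libraries that share a number were not treated as paired in the main fit. The correlations of their deviations ran from -0.23 to 0.57, with 1 of 5 over 0.1, and 1 control correlated best with its own number. The highest was that of the libraries numbered 2. These also lay together on the second principal component (10.3% of the variance), at 20.6 in control and 20.9 in mex>PGRP-LE. What they share was not tested. VhaAC39-2 was not tested at a mean of at least 5 TPM. Without read counts, the precision of the low-level genes cannot be given.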
